A study of Mus musculus with 24 samples.

Results

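The genes of the interleukin 17 (IL-17) axis were followed in mouse bone constructs across 6 groups. The set was chosen by gene symbol and holds 9 of the 51138 genes in the count table: the cytokines Il17a, Il17f and Il22, the lymphocyte surface receptors Il23r, Ccr6 and Cd163l1, and the IL-17 receptor subunits Il17ra, Il17rc and Il17re. All 9 were found in the table.

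Granules of biphasic calcium phosphate (BCP, 40 mg), a ceramic bone filler, were implanted under the dorsal skin of male and female Foxp3-DTR/eGFP mice aged 8 to 9 weeks, and RNA of the whole construct was sequenced at week 2. Each group had 4 samples, each from its own mouse. The BCP group carried no cells. BCP+MSC carried 800000 bone marrow stromal cells (MSC) per construct, from C57BL/6J mice by the methods. The authors' overview of the design names C57BL/6J or Foxp3-eGFP mice as the source. In BCP+MSC+RvE1 the MSC had been primed with 10 nM resolvin E1 (RvE1), a lipid mediator, and in BCP+MSC+Treg they had been cultured with activated regulatory T cells (Treg) sorted from spleens of the Foxp3-DTR/eGFP strain. Hosts of the remaining groups received 50 µg/kg of diphtheria toxin, which kills cells that express Foxp3 in this strain: (dep)BCP+MSC carried MSC, and (dep)BCP+MSC+RvE1inj carried MSC and was also injected locally with 1 µM RvE1. Every recipient, controls included, carried the toxin receptor allele, which the Foxp3 promoter drives. The methods describe toxin for the (dep) groups alone, so the toxin and the experiment in which it was given cannot be told apart.

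IL-17A and IL-17F are secreted by type 17 lymphocytes, which include Th17 cells, many γδ T cells and innate lymphoid cells. Both cytokines bind a receptor of IL-17RA and IL-17RC on stromal and epithelial cells and induce chemokines and antimicrobial proteins that draw and assist neutrophils. In bone, IL-17 is known both for driving osteoclast formation and for acting on osteoblast precursors.

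Il17a (chr1:20730905-20734496, plus strand of GRCm38) and Il17f (chr1:20777146-20790617, minus strand) lay 42.6 kb apart. The other cytokine, Il22, was at chr10:118204942-118210047. Il17re (chr6:113458484-113470758) and Il17rc (chr6:113471427-113483140) were 668 bases apart, and Il17ra (chr6:120463247-120487559) and Il23r (chr6:67422932-67491855) were on the same chromosome. Ccr6 was at chr17:8236043-8257141 and Cd163l1 at chr7:140218267-140231145. These are whole gene bodies, exons and introns, and no other annotated gene overlapped them, so their counts did not depend on an overlapping or antisense neighbour.

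Sequencing depth limited the rarest members. Samples held 8482701 to 144417743 counts, so the floor of 3 counts in a sample was 0.0208 to 0.354 counts per 1000000 (CPM) of its raw total. Gene levels are CPM after scaling by edgeR's TMM factors, so the floors of single samples are approximate on that scale. Foxp3, the gene that carries the toxin receptor, was at 1.69, 0.891, 0.976 and 0.378 CPM in (dep)BCP+MSC, against 0.629 to 1.19 CPM in BCP+MSC. The groups overlapped, so Foxp3 mRNA at week 2 gave no check of the depletion. The authors report the depletion from flow cytometry of lymph nodes and spleen. In bulk RNA, fewer cells of a type and less RNA per cell cannot be told apart, here or for any gene that follows.

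Il17a and Il22 were nearly absent from all constructs. Il17a had 1 count in the 1355172104 counts of the 24 samples, in BCP replicate 3. That is 0.00076 CPM pooled over all samples, with an exact 95% Poisson interval of 1.92e-05 to 0.00424 CPM that covers counting error only. Il22, a cytokine that acts on epithelial cells, had 3 counts, 1 each in BCP replicate 3, BCP+MSC replicate 4 and (dep)BCP+MSC library 5. The pooled level of Il22 was 0.00228 CPM, with an interval of 0.00047 to 0.00667 CPM. Neither gene reached the 10 counts needed for a test, so 7 of the 9 members were tested, among 30564 genes in all.

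Among the member cytokines, Il17f had most of its counts in the toxin-treated groups. It had 1, 12, 12 and 0 counts in (dep)BCP+MSC replicates 1 and 2 and unnumbered libraries 4 and 5, and 2, 6, 3 and 3 counts in (dep)BCP+MSC+RvE1inj replicates 1 to 4. BCP+MSC and BCP+MSC+Treg had 0 counts in every sample, BCP had 1 count in all and BCP+MSC+RvE1 had 3. The toxin-treated groups thus held 25 and 14 of the 43 Il17f counts.

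On the CPM scale, Il17f was at 0.0997, 0.289, 0.141 and 0 in (dep)BCP+MSC, a mean of 0.132 ± 0.12 CPM (SD, n = 4). In (dep)BCP+MSC+RvE1inj it was at 0.0234, 0.0808, 0.224 and 0.178 CPM, a mean of 0.126 ± 0.091 CPM (SD, n = 4). All 4 samples given RvE1 injections and 3 of 4 given toxin alone were above the zero level of BCP+MSC, and library 5 of (dep)BCP+MSC was not. Pooled over the group, (dep)BCP+MSC was at 0.136 CPM (95% Poisson interval 0.0878 to 0.2) and (dep)BCP+MSC+RvE1inj at 0.0736 CPM (0.0402 to 0.124).

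Against a floor of 3 counts over the BCP+MSC group, the pooled Il17f level was 10.4-fold in (dep)BCP+MSC and 5.64-fold in (dep)BCP+MSC+RvE1inj. These ratios leave out the counting error and the spread between samples of the toxin-treated groups, so they are not lower bounds. Without (dep)BCP+MSC replicate 2 the first ratio was 6.98, and without library 5 it was 14.0. Without (dep)BCP+MSC+RvE1inj replicate 1 the second ratio was 8.79. Il17f met the minimum summed count for a test only through the toxin-treated groups, which held 25 and 14 of its 43 counts. The counts of the other groups alone would not have met it, so entry into the test depended on the groups where Il17f was high. The test was edgeR's quasi-likelihood test, with Benjamini-Hochberg adjustment over all genes tested. In it, Il17f rose in (dep)BCP+MSC (adjusted p = 0.0279) and did not pass in (dep)BCP+MSC+RvE1inj (adjusted p = 0.0799). Both comparisons use the same BCP+MSC samples, and the toxin-treated groups themselves were not separated (log2 fold change -0.21 ± 1.1 SE, adjusted p = 0.984 in edgeR's quasi-likelihood test).

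Il17f was the 1 member called of the 7 tested in (dep)BCP+MSC against BCP+MSC, where 3.92% of all genes were called (1.75% higher). In (dep)BCP+MSC+RvE1inj against BCP+MSC, 0 of 7 members and 0.72% of all genes were called, and between the toxin-treated groups 0 of 7 members and 0.0% of genes. At an unadjusted p under 0.05 there were 2 of 7 members in the first comparison (Il17f higher and Ccr6 lower, beside 20.3% of genes), 2 of 7 in the second (Il17f and Il17re higher, beside 13.7%) and 1 of 7 in the third (Ccr6 higher with RvE1, beside 7.42%).

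The call of Il17f depended on single samples and on the fit. It was kept when library 4 or library 5 of (dep)BCP+MSC was left out and lost without (dep)BCP+MSC replicate 1 or 2 or any 1 of the BCP+MSC replicates, with adjusted p from 0.00869 to 0.0995 over the 8 edgeR fits. The call also ended in the fit of only the 2 groups (adjusted p = 0.157), without the shallow samples under 20000000 counts (0.0955) and with a covariate for keratinocyte genes (0.0525). Il17f was not tested under edgeR's filterByExpr, and DESeq2 gave it no adjusted p. In exact two-sided permutation tests over 70 arrangements, whose smallest p-value is 0.0286, Il17f gave p = 0.143 for (dep)BCP+MSC and p = 0.0286 for (dep)BCP+MSC+RvE1inj against BCP+MSC.

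**Figure D1:**
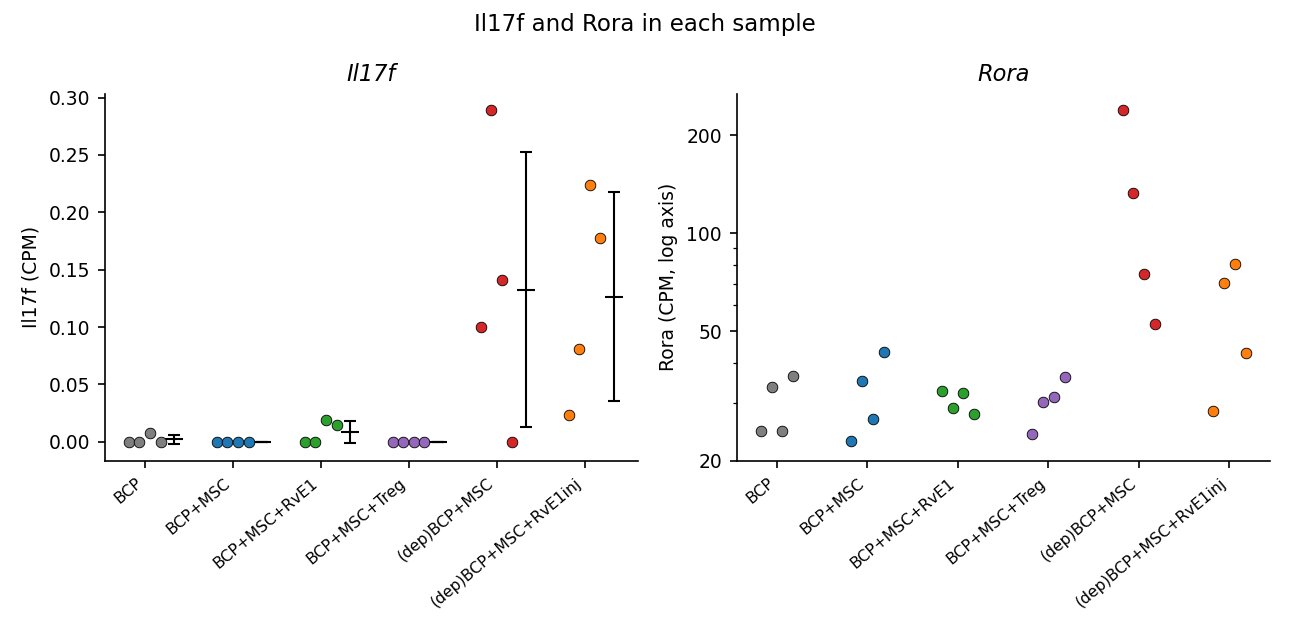
Il17f (left, CPM on a linear axis) and Rora (right, CPM on a log axis) in each of the 24 samples, 4 points a group, in replicate order from left to right; on the left, the black dash and bars show the mean and SD. Il17f is at 0 in every BCP+MSC sample and reaches 0.289 CPM after toxin, and Rora is at 52.8 to 239 CPM in (dep)BCP+MSC against 23.0 to 43.3 CPM in the 16 samples without toxin.

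None of the 3 receptors of type 17 lymphocytes was called in any comparison. Il23r, the receptor subunit for the cytokine IL-23 that maintains type 17 cells, had 56 counts in all, in 13 of 24 samples. Its group means ran from 0.0176 CPM in BCP+MSC+RvE1 through (dep)BCP+MSC (0.0218), BCP (0.0221), (dep)BCP+MSC+RvE1inj (0.0269) and BCP+MSC+Treg (0.0496) to 0.0662 CPM in BCP+MSC. These means lie near the floors of single samples. (dep)BCP+MSC had 0, 0.0241, 0 and 0.063 CPM of Il23r and BCP+MSC had 0.0818, 0.107, 0.0166 and 0.0594 CPM, and the groups overlapped (log2 fold change -1.37 ± 1.35 SE, adjusted p = 0.609 in edgeR's quasi-likelihood test).

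Ccr6, the receptor for the chemokine CCL20 that B cells share with type 17 cells, was lowest in (dep)BCP+MSC. There it was at 0, 0, 0.0823 and 0 CPM, against 0.109, 0.549, 0.0828 and 0.282 CPM in BCP+MSC. Every (dep)BCP+MSC sample was below every BCP+MSC sample, by a narrow margin for library 4. Replicate 1 of (dep)BCP+MSC had a floor of 0.354 CPM, above all BCP+MSC values but 0.549. Its 0 therefore does not place it below them, and the full separation rests partly on that 0. The difference had an unadjusted p of 0.0137 and an adjusted p of 0.134 in edgeR's quasi-likelihood test (log2 fold change -3.01 ± 1.14 SE) and p = 0.0286, the smallest possible, in the exact permutation test. Without library 4 of (dep)BCP+MSC the log2 fold change was -6.78 with an adjusted p of 0.046 (edgeR), and without BCP+MSC replicate 2 it was -2.33 with an adjusted p of 0.267.

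In (dep)BCP+MSC+RvE1inj, Ccr6 was at 0.467, 0, 0 and 0.296 CPM. Replicates 1 and 4 lay within the range of BCP+MSC and replicates 2 and 3 had no count. Against (dep)BCP+MSC the log2 fold change was 2.66 ± 1.15 SE, with adjusted p = 0.668 in edgeR's quasi-likelihood test, and the groups overlapped. That value was 6.48 without library 4 of (dep)BCP+MSC and 1.45 without replicate 1 of (dep)BCP+MSC+RvE1inj. In the groups without toxin, Ccr6 means were 0.362 ± 0.132 CPM in BCP, 0.256 ± 0.215 in BCP+MSC, 0.172 ± 0.106 in BCP+MSC+RvE1, and 0.114 ± 0.0918 after Treg coculture (SD, n = 4 each).

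Ccr6 is also a B cell gene, and B cell markers are given beside it. Over the 24 samples, Spearman's rho of Ccr6 and the sum of 8 B cell markers was 0.61, as a description, and the highest sample was the same in 4 of 6 groups. Of the 8 toxin-treated samples, the 3 with a Ccr6 count had 46.3 to 95.5 CPM in that sum, and the 5 without had 22.6 to 40.4 CPM, with floors of 0.354 and 0.217 CPM in the shallowest of the latter. The sum ran from 42.0 to 61.6 CPM in BCP+MSC, from 22.6 to 46.3 CPM in (dep)BCP+MSC and from 36.6 to 95.5 CPM in (dep)BCP+MSC+RvE1inj. The median log2 fold change of the B cell list was -0.87 in (dep)BCP+MSC against BCP+MSC, beside a median of -0.04 over all genes tested. In that comparison 0 of 8 genes of the list and 3.92% of all genes were called. In (dep)BCP+MSC+RvE1inj against BCP+MSC the list median was 0.8, while Ccr6 had a log2 fold change of -0.36 ± 0.97 SE. The part of B cells in the Ccr6 difference was not tested.

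Cd163l1, the scavenger receptor SCART1 of IL-17-producing γδ T cells, had similar group means with unequal spread. It was at 0.573, 0.549, 0.397 and 0.609 CPM in BCP+MSC. Levels in (dep)BCP+MSC were 0, 0.0241, 0.223 and 1.76 CPM, and those in (dep)BCP+MSC+RvE1inj 0.97, 1.24, 1.12 and 0.178 CPM. Library 5 of (dep)BCP+MSC held the highest level of all samples and replicate 1 of that group none, so the toxin group spanned the whole range of the series.

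The fitted log2 fold change of Cd163l1 was 0.00191 ± 0.78 SE in (dep)BCP+MSC and 0.73 ± 0.88 SE in (dep)BCP+MSC+RvE1inj against BCP+MSC, with adjusted p of 1.0 and 0.754 in edgeR's quasi-likelihood test. Without library 5 the first value was -2.27. Within (dep)BCP+MSC, Cd163l1 had the same order as the sum of 10 T cell receptor complex and coreceptor genes, which was 32.5, 42.9, 81.0 and 139 CPM. Over all 24 samples the likeness was weak: Spearman's rho was 0.44, and the highest sample was the same in 2 of 6 groups. With the sum of the 10 γδ T cell genes rho was -0.09. That sum is mostly Zbtb16 and Sox13, with means of 77.5 and 14.9 CPM in (dep)BCP+MSC. The δ chain gene Trdc was at 0.483 CPM there, so the sum says little about γδ T cells. The T cell receptor sum was 20.9 to 61.6 CPM in BCP+MSC and 123 to 151 CPM in (dep)BCP+MSC+RvE1inj. The genes most like Cd163l1 over the 24 samples, out of 18350 compared by Pearson's r of log2 CPM, were Cd7 (r = 0.823), Eomes (0.801) and Zbtb32 (0.795). Cd7 and Eomes are known from T and natural killer cells.

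**Figure D2:**
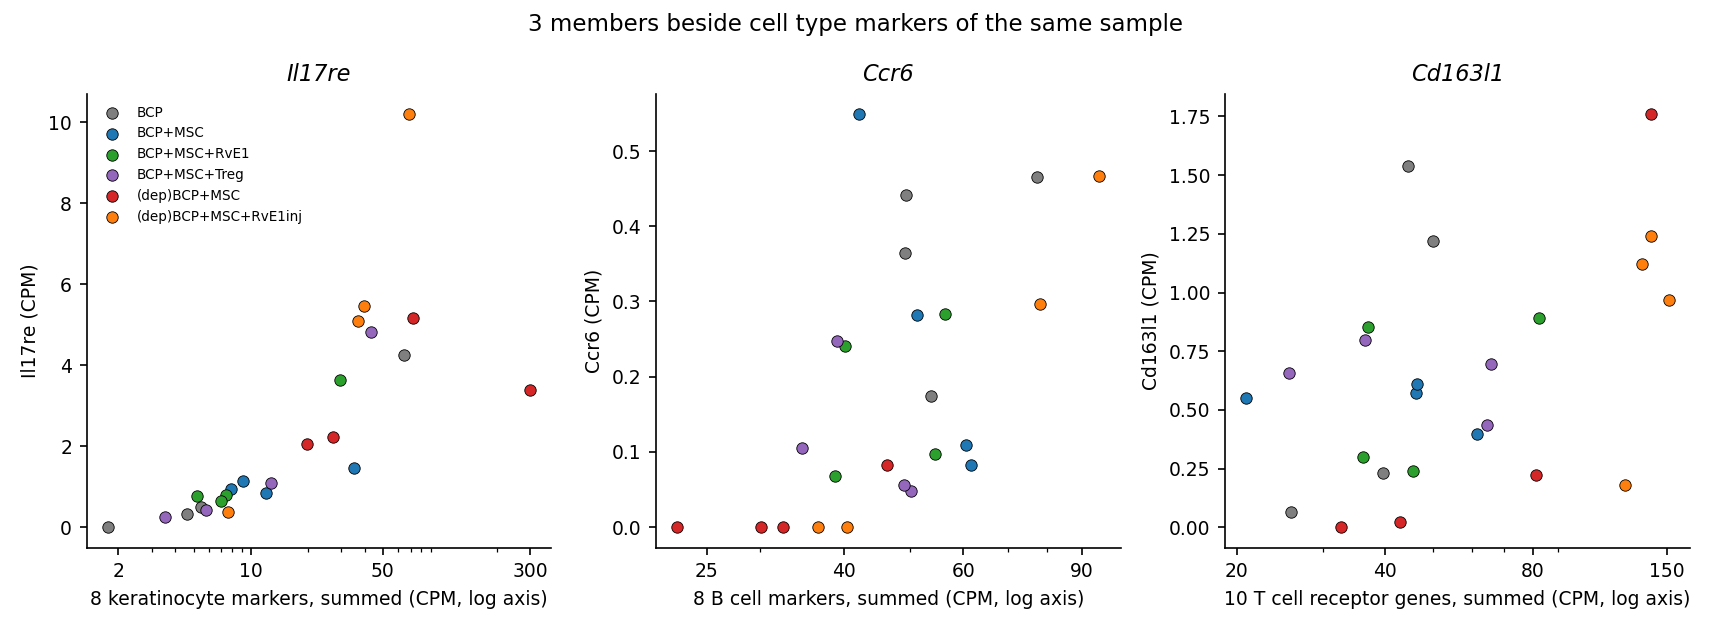
Il17re, Ccr6 and Cd163l1 (vertical axes, CPM) against the summed CPM of keratinocyte, B cell and T cell receptor genes of the same sample (horizontal log axes), 1 point a sample in the colour of its group. Il17re follows the keratinocyte sum across groups, the 5 toxin-treated samples without Ccr6 lie at B cell sums of 40.4 CPM or less, and Cd163l1 in (dep)BCP+MSC runs from 0 to 1.76 CPM.

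The shared receptor subunits had far more counts and varied little between groups. Il17ra, the subunit common to receptors of several IL-17 cytokines, was at 64.6, 42.4, 55.1 and 51.5 CPM in (dep)BCP+MSC, 62.5, 57.1, 34.4 and 54.8 CPM in (dep)BCP+MSC+RvE1inj and 44.6, 62.8, 41.1 and 51.4 CPM in BCP+MSC. All 3 groups overlapped. Its group means ran from 48.9 CPM in BCP+MSC+RvE1 through BCP+MSC, (dep)BCP+MSC+RvE1inj (52.2), (dep)BCP+MSC (53.4) and BCP+MSC+Treg (55.0) to 56.7 CPM in BCP, a ratio of 1.16, with a coefficient of variation of 16.1% over samples. The log2 fold change against BCP+MSC was 0.09 ± 0.19 SE in (dep)BCP+MSC and 0.06 ± 0.19 SE in (dep)BCP+MSC+RvE1inj.

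Il17rc, the partner subunit for IL-17A and IL-17F, had group means from 13.6 CPM in (dep)BCP+MSC through BCP (15.2), BCP+MSC (15.2), BCP+MSC+Treg (17.5) and (dep)BCP+MSC+RvE1inj (17.9) to 18.6 CPM in BCP+MSC+RvE1, a ratio of 1.37. (dep)BCP+MSC had 9.07, 14.6, 12.9 and 17.9 CPM of Il17rc and BCP+MSC had 14.3, 15.6, 14.1 and 16.6 CPM. The ranges overlapped, and the log2 fold change was -0.15 ± 0.25 SE. Per kilobase of exon, mean levels over all samples were 6.08 CPM for Il17ra and 6.12 CPM for Il17rc, so the partners were at like levels per length, against 0.396 CPM for Il17re and 0.0222 CPM for Il17f. Over the neighbours in the order of group means, 25 exact permutation tests on Il17ra, Il17rc, Il17re, Cd163l1 and Ccr6 gave an adjusted p of 0.971 each. The pairs were picked for adjacent means in these same data, so these tests cannot show how far the groups differ.

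Il17re, the partner of IL-17RA in the receptor for the epithelial cytokine IL-17C, was the subunit that varied. It was at 0.846, 1.47, 1.14 and 0.95 CPM in BCP+MSC. All of (dep)BCP+MSC was above every BCP+MSC sample, at 3.39, 2.22, 2.05 and 5.16 CPM. After RvE1 injection it was at 5.08, 0.363, 5.45 and 10.2 CPM, with replicate 2 below BCP+MSC and the other 3 above.

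The log2 fold change of Il17re against BCP+MSC was 1.53 ± 1.03 SE in (dep)BCP+MSC (adjusted p = 0.424) and 2.25 ± 1.06 SE in (dep)BCP+MSC+RvE1inj (adjusted p = 0.351) in edgeR's quasi-likelihood test. The exact permutation test gave p = 0.0286 and p = 0.143. Among the groups without toxin, replicate 1 stood apart in BCP (4.26 CPM, the others 0 to 0.493), in BCP+MSC+RvE1 (3.63 CPM, the others 0.64 to 0.794) and after Treg coculture (4.83 CPM, the others 0.247 to 1.08).

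Il17re went with skin genes. In 5 of 6 groups the sample with the most Il17re was also the sample with the highest sum of 8 keratinocyte markers, and Spearman's rho of both over the 24 samples was 0.93, as a description. The sum was 64.7 CPM in BCP replicate 1 against 1.76 to 5.45 CPM in the rest of that group. It ran from 7.84 to 35.3 CPM in BCP+MSC, 19.8 to 300 CPM in (dep)BCP+MSC and 7.64 to 69.1 CPM in (dep)BCP+MSC+RvE1inj. With the keratinocyte level as a covariate, an alternative chosen after seeing the data, the log2 fold change of Il17re was 0.16 in (dep)BCP+MSC and 1.53 in (dep)BCP+MSC+RvE1inj. The genes most like Il17re over the 24 samples were Mal2 (r = 0.949), Tmem184a (0.942) and Grb7 (0.941). Mal2 is known from polarized epithelial cells.

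**Figure D3:**
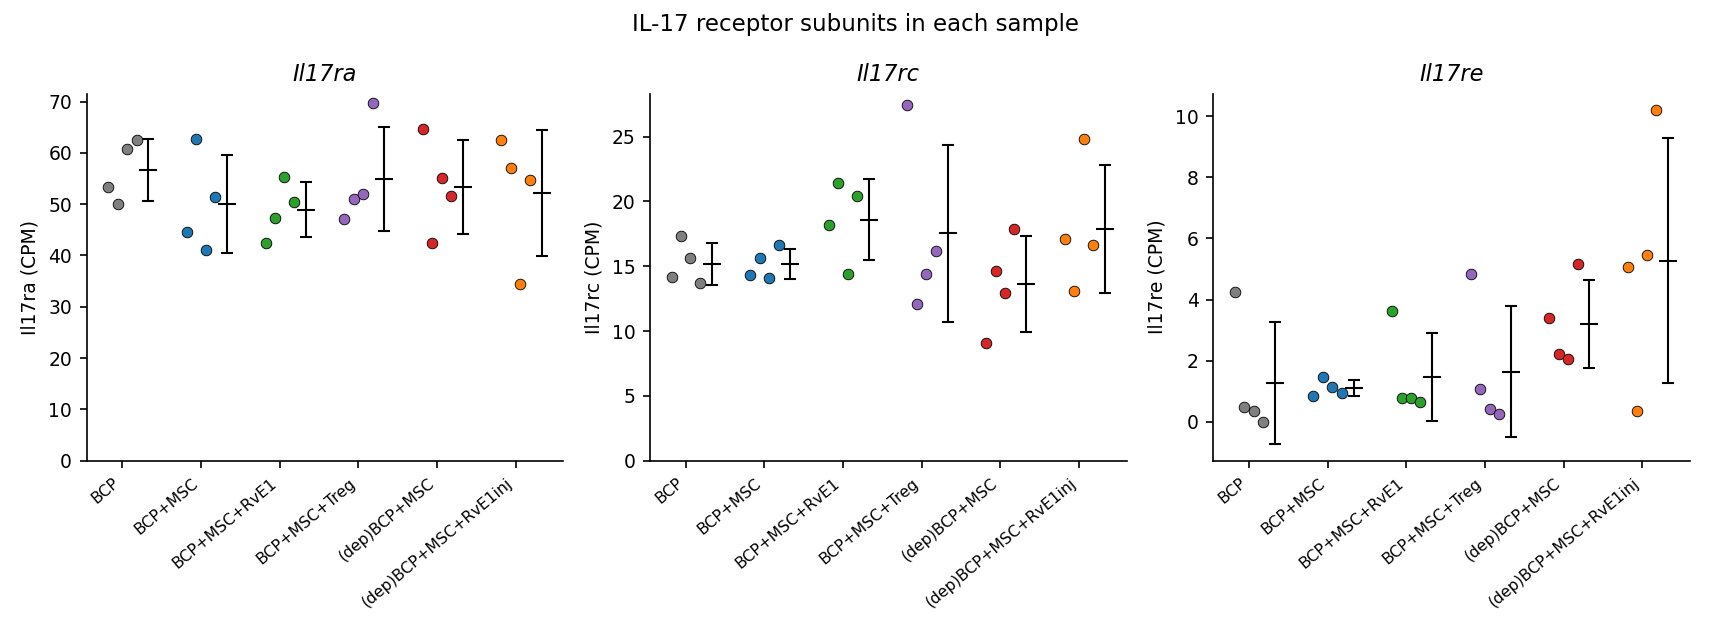
The receptor subunits Il17ra, Il17rc and Il17re (vertical axes, CPM) in each of the 24 samples, 4 points a group, with the mean and SD in black. Il17ra and Il17rc overlap in all groups, and Il17re reaches 10.2 CPM in (dep)BCP+MSC+RvE1inj and is raised in replicate 1 of the groups BCP, BCP+MSC+RvE1 and BCP+MSC+Treg.

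In the groups without toxin no member passed. Of 35 tests of the 7 members in 5 comparisons (BCP+MSC, BCP+MSC+RvE1 and BCP+MSC+Treg against BCP, and the primed groups against BCP+MSC), 0 were called, the lowest unadjusted p was 0.0789 and the lowest adjusted p 0.547 in edgeR's quasi-likelihood test. The background was 0.0% of genes in each of these comparisons. At an unadjusted p under 0.05, 0 of the 35 member tests passed as well. That threshold took 5.06% of all genes in BCP+MSC against BCP, 15.6% after RvE1 priming and 7.6% after Treg coculture, and 3.26% and 2.72% in the primed groups against BCP+MSC.

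Upstream of the ligands, 18 inducers and regulators of type 17 lymphocytes were tested, and 2 rose and 0 fell in (dep)BCP+MSC against BCP+MSC, where 3.92% of all genes were called and 1.75% were higher. The median log2 fold change of these genes was 0.19, beside -0.04 over all genes tested.

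Rora, the nuclear receptor RORα, which takes part in type 17 differentiation and is also expressed widely outside lymphocytes, rose in (dep)BCP+MSC with 239, 133, 74.7 and 52.8 CPM against 23.0, 35.1, 26.9 and 43.3 CPM in BCP+MSC. Every (dep)BCP+MSC sample was above all 16 samples without toxin. The difference passed (log2 fold change 1.96 ± 0.36 SE, adjusted p = 0.00247 in edgeR's quasi-likelihood test). Il6ra, the receptor for the type 17 inducer IL-6, rose with 238, 166, 137 and 95.4 CPM against 70.1 to 94.5 CPM (log2 fold change 0.97 ± 0.21 SE, adjusted p = 0.0088, edgeR). Without replicate 1 of (dep)BCP+MSC the adjusted p of Il6ra was 0.0657. In Rora and Il6ra, replicate 1 was the highest sample and library 5 the lowest of the group, the reverse of the order in the T cell receptor sum, and library 5 had no Il17f count. After RvE1 injection, Rora was at 28.4, 70.1, 80.7 and 43.0 CPM, which overlapped BCP+MSC (log2 fold change 0.79 ± 0.35 SE, adjusted p = 0.309, edgeR).

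The inducing cytokines did not pass. Il23a was at 1.6, 0.41, 0.282 and 0.546 CPM in (dep)BCP+MSC, overlapping the 0.182 to 0.628 CPM of BCP+MSC (adjusted p = 0.485, edgeR). Il1b, at 1.69, 2.07, 17.3 and 76.6 CPM against 61.5 to 111 CPM in BCP+MSC, had an adjusted p of 0.272 in edgeR's quasi-likelihood test. Library 5 alone lay within the BCP+MSC range of Il1b. In (dep)BCP+MSC+RvE1inj, 1 of 18 genes rose and 0 fell, beside 0.72% of all genes called. The 1 that rose was Il12rb1, the receptor chain shared by IL-12 and IL-23. Il12rb1 was at 4.75, 5.37, 4.4 and 4.56 CPM against 0.778 to 1.64 CPM (log2 fold change 2.02 ± 0.49 SE, adjusted p = 0.05 after rounding, just under the threshold, edgeR). Its call was lost with any 1 of the 8 samples left out, with adjusted p from 0.0639 to 0.17.

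Of the other 6 ligands and receptors of the IL-17 family, 0 were called in either toxin-treated group. The shares of all genes called were 3.92% in (dep)BCP+MSC and 0.72% in (dep)BCP+MSC+RvE1inj. Il17d, a ligand expressed outside the lymphocytes, was at 0.399, 0.193, 0.423 and 0.63 CPM in (dep)BCP+MSC against 0.595 to 2.14 CPM in BCP+MSC (log2 fold change -1.45 ± 0.66 SE, adjusted p = 0.214, edgeR).

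Among 10 γδ T cell genes, 9 were tested and 1 rose in (dep)BCP+MSC, beside 1.75% of all genes: Zbtb16, which encodes the transcription factor PLZF of innate-like T cells. Zbtb16 was at 169, 79.7, 45.1 and 16.6 CPM against 4.12, 6.03, 3.24 and 24.7 CPM in BCP+MSC, with overlap in library 5 and BCP+MSC replicate 4 (log2 fold change 3.02 ± 0.66 SE, adjusted p = 0.013, edgeR). Without (dep)BCP+MSC replicate 1 the adjusted p was 0.06. The call also ended with the keratinocyte covariate (0.0998), in a fit of only the 2 groups (0.168) and without samples under 20000000 counts (0.104). The order of the 4 (dep)BCP+MSC samples in Zbtb16 was the reverse of that in the T cell receptor sum. None of the tested receptor chain genes of the list was called, and their values went both ways: the log2 fold change was -1.47 ± 0.58 SE for Trdc, the constant region of the δ chain (adjusted p = 0.149, edgeR), -1.27 ± 0.77 SE for the γ chain gene Tcrg-C1, -1.18 ± 0.77 SE for Tcrg-C4 and 0.93 ± 0.71 SE for Tcrg-C2.

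The T cell receptor complex and coreceptors had 0 of 10 genes called in (dep)BCP+MSC, beside 3.92% of all genes. In (dep)BCP+MSC+RvE1inj, 2 of 10 were called, both higher, beside 0.72% of all genes. These were Cd4 (25.3, 21.6, 11.9 and 21.2 CPM against 5.54 to 10.4 CPM in BCP+MSC, adjusted p = 0.0278, edgeR) and the coreceptor chain Cd8b1 (log2 fold change 2.98 ± 0.68 SE, adjusted p = 0.0355, edgeR). At an unadjusted p under 0.05, 9 of 10 were higher there, beside 6.54% of all genes. The call of Cd4 was kept only without BCP+MSC replicate 3 or (dep)BCP+MSC+RvE1inj replicate 3, with adjusted p from 0.0234 to 0.0934 over the 8 edgeR fits, and that of Cd8b1 only without (dep)BCP+MSC+RvE1inj replicate 1, with adjusted p from 0.0373 to 0.136.

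In the signalling chain below the receptor, 13 genes were tested in (dep)BCP+MSC against BCP+MSC, and 2 rose and 1 fell, beside 3.92% of all genes called, with a list median of -0.17 on the log2 scale. Ikbke, the kinase IKKε that phosphorylates the adaptor Act1, fell to 20.2, 25.3, 49.9 and 32.1 CPM from 102, 86.7, 110 and 57.9 CPM (log2 fold change -1.48 ± 0.25 SE, adjusted p = 0.00153, edgeR). The ranges did not overlap. Ikbke also fell in (dep)BCP+MSC+RvE1inj, at 53.9, 41.7, 28.1 and 37.6 CPM (log2 fold change -1.14 ± 0.25 SE, adjusted p = 0.0279, edgeR). The call after RvE1 injection was kept only without BCP+MSC replicate 4 or (dep)BCP+MSC+RvE1inj replicate 1, with adjusted p from 0.0177 to 0.117 over the 8 edgeR fits. Gm28914 and Gm28913 overlap Ikbke on the other strand.

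Traf6, the ubiquitin ligase that Act1 recruits, rose in (dep)BCP+MSC with 76.8, 54.2, 53.2 and 49.4 CPM against 25.6 to 36.5 CPM (log2 fold change 0.92 ± 0.2 SE, adjusted p = 0.00826, edgeR). Without replicate 1 its adjusted p was 0.0522. Arid5a, an RNA-binding protein that stabilizes IL-17 target transcripts, was at 94.6, 47.4, 40.7 and 48.2 CPM against 23.3 to 42.7 CPM (log2 fold change 0.96 ± 0.27 SE, adjusted p = 0.0458, edgeR). The call of Arid5a was lost without (dep)BCP+MSC replicate 1 (adjusted p = 0.261) or 2 (0.0709), or BCP+MSC replicate 1 (0.125), 2 (0.111) or 4 (0.0965).

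**Figure D4:**
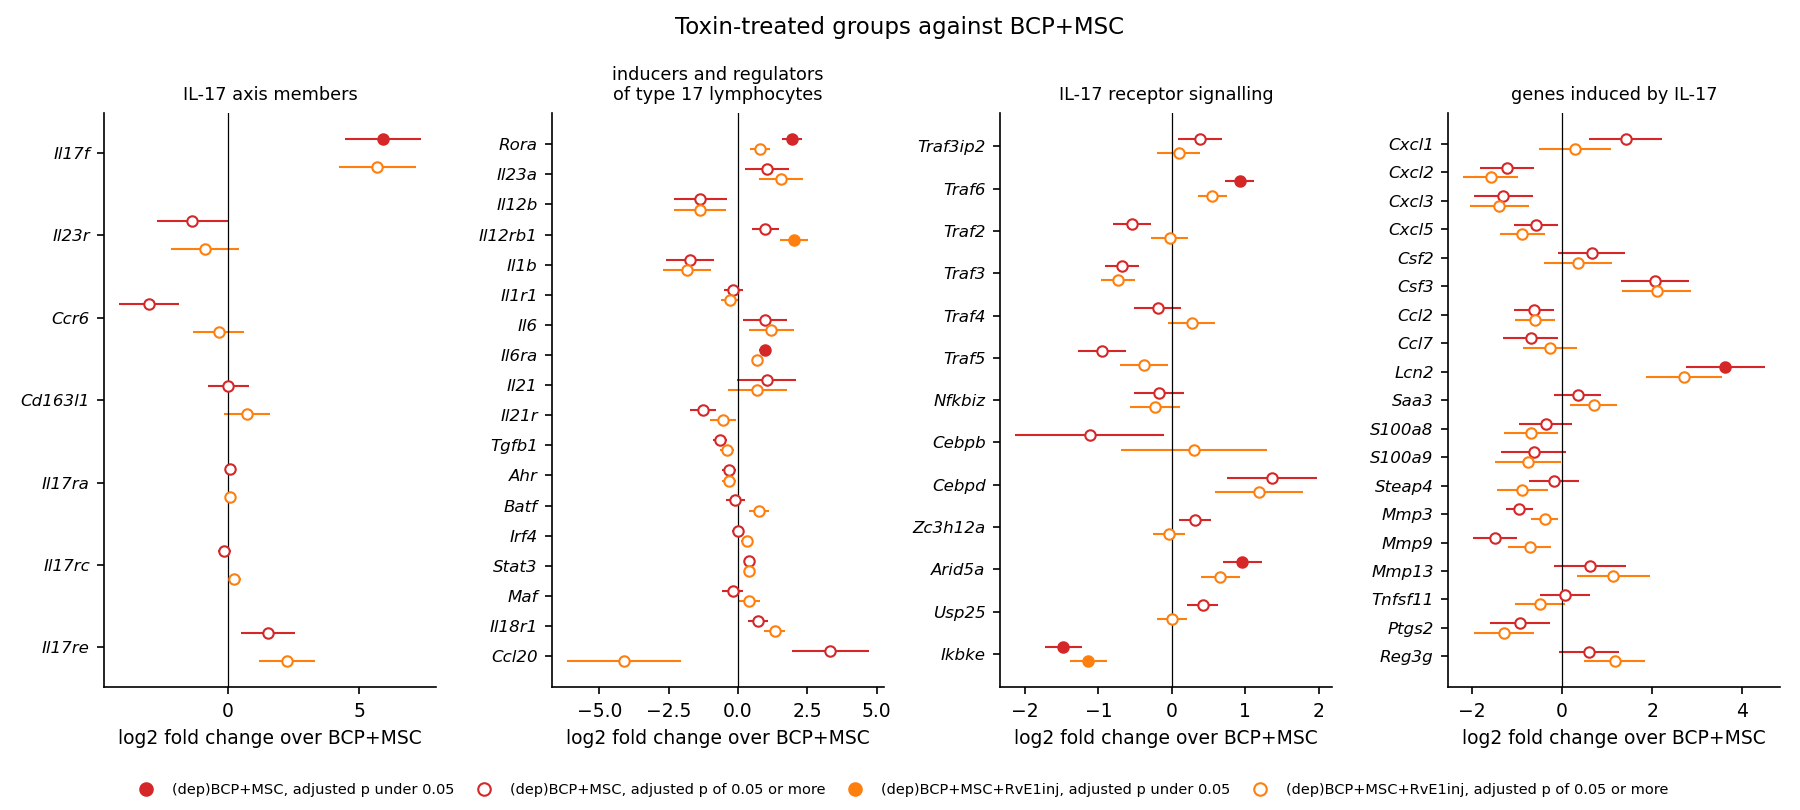
Log2 fold changes over BCP+MSC (points, with SE as bars, from edgeR) of the 7 members tested and of the genes tested from 3 lists, in the toxin group without (red) and with RvE1 injection (orange); filled points have an adjusted p under 0.05. Both groups are set against the same BCP+MSC samples. The axes differ between panels, and Ikbke is filled in both groups.

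Of 20 genes listed as induced by IL-17, 19 were tested in (dep)BCP+MSC against BCP+MSC, with 1 called higher, 0 called lower and a median log2 fold change of -0.36, beside 3.92% of all genes called and a median of -0.04. The 1 called was Lcn2, the antimicrobial protein lipocalin 2, at 66.6, 243, 31.9 and 105 CPM against 9.66, 12.0, 9.63 and 4.71 CPM (log2 fold change 3.63 ± 0.87 SE, adjusted p = 0.0231, edgeR). Every toxin sample was above every BCP+MSC sample. The call was lost without (dep)BCP+MSC replicate 2 (adjusted p = 0.0944) or any 1 of the BCP+MSC replicates (0.0517 to 0.0677).

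After RvE1 injection, Lcn2 was at 52.6, 15.5, 61.6 and 106 CPM, also above BCP+MSC in all 4 samples (adjusted p = 0.152, edgeR). There 0 of 19 genes of the list were called, beside 0.72% of all genes. Csf3, the neutrophil growth factor, had log2 fold changes of 2.06 ± 0.76 SE and 2.1 ± 0.77 SE in the toxin-treated groups (adjusted p = 0.127 and 0.218, edgeR). The chemokine Cxcl5 had values in the other direction, with log2 fold changes of -0.57 ± 0.49 SE and -0.88 ± 0.5 SE (adjusted p = 0.558 and 0.448, edgeR). Mmp9, a matrix protease of neutrophils and osteoclasts, was at 6.78, 9.15, 30.8 and 51.9 CPM in (dep)BCP+MSC against 39.2 to 89.5 CPM in BCP+MSC (adjusted p = 0.0891, edgeR).

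The median summed level of 8 neutrophil markers was 113 CPM in (dep)BCP+MSC and 128 CPM in (dep)BCP+MSC+RvE1inj against 268 CPM in BCP+MSC, with ranges of 66.8 to 437, 115 to 339 and 242 to 342 CPM. The single genes did not move together. In (dep)BCP+MSC 1 was called higher and 0 lower, beside 1.75% of all genes called higher. At an unadjusted p under 0.05 (edgeR), 3 were higher and 2 lower, and the list median was -0.06 on the log2 scale. Of 8 fibroblast markers, 4 were called lower in (dep)BCP+MSC, beside 3.92% of all genes called (1.75% higher). Their sum was 5470 to 13600 CPM against 15800 to 37300 CPM in BCP+MSC. That sum is mostly the collagens Col1a1, Col1a2 and Col3a1, with means of 7150, 6940 and 10100 CPM in BCP+MSC. Dcn and Pdgfra of the same list had means of 932 and 111 CPM in (dep)BCP+MSC against 892 and 121 CPM. The part of cell makeup in the values of the IL-17 genes was not tested.

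Of 6 genes of the IL-22 receptor and response, 1 was called in (dep)BCP+MSC, beside 3.92% of all genes. Reg3b, an antimicrobial lectin, was at 0, 0.0241, 0.0235 and 0.903 CPM there and at 0 in BCP+MSC (adjusted p = 0.0485, edgeR). Library 5 carried nearly all of it, and without that library the adjusted p was 0.263 (edgeR). The means of Reg3b in the groups without toxin were 0 to 0.0147 CPM. It met the minimum summed count for a test only through the toxin-treated groups. Its entry into the test thus depended on the groups where it was high.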

How the data were processed

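RNA of subcutaneous implants was sequenced from 24 mice in 6 groups of 4, taken from the sample labels. The authors prepared stranded mRNA libraries, aligned reads with HISAT2 2.0.5 and counted them per gene with featureCounts 1.5.2 on GENCODE M13, and deposited these raw counts for 51138 genes. The counting command named no strand option. It also lists 28 alignments, of which 4, named for RVE, have no column; the columns labelled R were used as BCP+MSC+RvE1. Of the (dep)BCP+MSC columns, 4 and 5 match no sample number and were used as unnumbered members of the group. Nothing else in the labels marks a batch.

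Counts were analysed with edgeR 4.0.16 (R 4.3.3): a minimum of 10 counts per gene summed over the samples, TMM scaling, 1 quasi-likelihood model with robust dispersions over all 6 groups, 8 comparisons, and Benjamini-Hochberg adjustment over 30564 genes. Called means an adjusted p under 0.05, and "edgeR" after a p names this test. Levels are CPM after TMM, and log2 CPM used a prior count of 2. Permutation tests are exact and two-sided, on log2 CPM. Positions and symbols came from GENCODE M21, which matched 50376 identifiers. The members and the 14 other gene lists were chosen with earlier results of these data known. The genes named are the members, every called gene of the pathway lists, and a few genes that define each list; 1 gene of the inducer list is not reported here.

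Alternatives were RLE scaling, filterByExpr, no filter, a replicate block, a sex-linked covariate, a fit of only the 2 groups compared, DESeq2 1.42.0 and each sample left out in turn; a fit without the 7 samples under 20000000 counts and a keratinocyte covariate were added after seeing the data. In simulated counts of 29659 genes for (dep)BCP+MSC against BCP+MSC, edgeR called 154 of 200 changed genes and 1 unchanged gene, and DESeq2 178 and 48. The changed genes had means above 1 CPM and were shifted by 2 on the log2 scale. Il17f, Il23r, Ccr6 and Cd163l1 had lower means, so recovery at their levels was not measured. Samples of 1 group differed by far more than sampling noise (chi-square per degree of freedom at least 62.0). Total counts were 8482701 to 144417743, and intervals and floors cover counting error only. Figures were drawn with matplotlib 3.10.9.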

Additional observations from a re-analysis of the deposited data

Results flagged for a closer look

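In 14 of 73 groups of 4 samples examined, 1 sample stood apart from its group by Dixon's criterion; chance alone marks about 1 in 20 groups of normal values. That rate does not hold where the other 3 samples are at 0, since any single count then meets the criterion. Among the members these were Il23r in BCP replicate 3 (0.0883 CPM, the others 0) and in (dep)BCP+MSC+RvE1inj replicate 2 (0.108 CPM, the others 0), and Ccr6 in (dep)BCP+MSC library 4 (0.0823 CPM, the others 0), all of this kind. For Il23r in BCP, replicates 1 and 4 had floors of 0.205 and 0.213 CPM, above the value. Cd163l1 was at 1.76 CPM in (dep)BCP+MSC library 5, the others at 0 to 0.223. Il17re was at 4.26 CPM in BCP replicate 1 and 3.63 CPM in BCP+MSC+RvE1 replicate 1, which also held the highest keratinocyte sums of their groups.

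Among the other pathway and marker genes, Arid5a was at 42.7 CPM in BCP+MSC replicate 3 and 94.6 CPM in (dep)BCP+MSC replicate 1. Reg3b was at 0.903 CPM in (dep)BCP+MSC library 5 and 0.315 CPM in (dep)BCP+MSC+RvE1inj replicate 1, where the others were at 0. Zbtb16 was at 24.7 CPM in BCP+MSC replicate 4, and Cd8b1 at 15.6 CPM in (dep)BCP+MSC+RvE1inj replicate 3. Krt1, a keratin of differentiating epidermis, was at 0.0993 CPM in BCP+MSC replicate 3 and 10.1 CPM in (dep)BCP+MSC replicate 1.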

How the results depend on the processing

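For the 30 single-gene results, 264 alternatives other than leaving out a sample left 218 on the same side of the threshold with the same direction, 38 lost the call and 8 changed sign. The members called in (dep)BCP+MSC against BCP+MSC fell from 1 to 0 under filterByExpr, which did not test Il17f, under the fit of only the 2 groups, under DESeq2, which gave Il17f no adjusted p, without samples under 20000000 counts and with the keratinocyte covariate. Leaving out 1 sample gave 0 to 2 members, 467 to 1672 genes called in that comparison and 45 to 213 in (dep)BCP+MSC+RvE1inj against BCP+MSC, where the main counts were 1198 and 220. Genes called in (dep)BCP+MSC were 2633 with the replicate block, 157 in the 2-group fit, 2895 by DESeq2, 630 without the shallow samples and 495 with the keratinocyte covariate. Those in (dep)BCP+MSC+RvE1inj were 357 with the sex-linked covariate, 40 in the 2-group fit, 1112 by DESeq2 and 13 without the shallow samples. Between the toxin-treated groups the replicate block called 408 genes and DESeq2 8, against 0. Against BCP, DESeq2 called 6 genes in BCP+MSC, 99 in BCP+MSC+RvE1 and 3 after Treg coculture, and 3 in BCP+MSC+RvE1 against BCP+MSC; the keratinocyte covariate called 1 gene in each of the first 2. The 2-group fit, which estimates the spread from 8 samples, also ended the calls of Rora, Il6ra, Ikbke, Traf6, Arid5a, Reg3b and Zbtb16 in (dep)BCP+MSC, and the keratinocyte covariate those of Il6ra, Traf6, Arid5a, Reg3b and Zbtb16. The cause of these shifts was not tested. Replicate numbers mark different animals, and the deviations of same-numbered samples correlated at -0.45 to 0.32, so they do not pair the samples.

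Changes of sign were confined to values that were not called and to Krt1. Cd163l1 in (dep)BCP+MSC turned from 0.00191 to -4.79 with the replicate block, -0.75 with the sex-linked covariate, -0.00218 in the 2-group fit and -0.01 by DESeq2, on the log2 scale, and ranged from -2.27 to 0.4 with 1 sample left out. The replicate-block value rests on replicates 1 and 2 of (dep)BCP+MSC, at 0 and 0.0241 CPM. With the sex-linked covariate, Cd163l1 and Il17ra in (dep)BCP+MSC+RvE1inj turned to -0.27 and -0.01. Il17rc in (dep)BCP+MSC was 0.01 without the shallow samples, and Krt1 was -0.36 with the keratinocyte covariate. With 1 sample left out, Il17ra ranged from -0.02 to 0.24 in (dep)BCP+MSC and from -0.02 to 0.22 in (dep)BCP+MSC+RvE1inj, and Ccr6 in the latter from -1.55 to 0.36.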
